A study of Mus musculus with 18 samples.

Results

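The genes described here are 7 that astrocytes switch on or raise when they become reactive: Gfap, Vim, Nes, Serpina3n, Cd44, Timp1 and Lcn2. Their members are all 13 probe sets whose single gene symbol in the array's annotation is one of these names, of 22626 probe sets in all, where the symbols cover 12393 genes. They were measured in total RNA from the oculomotor nucleus, which drives eye muscles and resists amyotrophic lateral sclerosis (ALS), and from the cervical spinal cord, which is affected. There were 6 groups of 3 Affymetrix 430A arrays: mutant mice of 10 weeks, mutant mice of 6 weeks and control mice of 10 weeks, each with the oculomotor nucleus and the spinal cord. Mutants and controls alike carry the description of an ALS model in the labels, which name neither the mutation nor the strain, and no control of 6 weeks was measured. The submitters call the replicates independent, but no label says whether an array stands for 1 animal or a pool, so p-values reflect only how these arrays spread, which may be technical.

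Reactive astrocytes respond to injury and disease of the nervous system by rebuilding their intermediate filaments, which are made of GFAP and vimentin, with nestin joining them. They also change the proteins by which they meet the matrix and secrete inhibitors of proteases and proteins of the acute phase. Cytokines of the interleukin-6 family, acting through the receptor chain gp130 and the transcription factor STAT3, are a well-studied trigger of this program. None of these genes belongs to astrocytes alone: Vim is also expressed in endothelial cells, fibroblasts and microglia, Nes in progenitors and endothelial cells, and Cd44 in immune cells.

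Replicate 1 of control spinal cord did not enter the results, since its signals had rank correlations of 0.00883 to 0.0126 with the other arrays, against 0.955 to 0.985 among the 17 arrays used. The control spinal cord group therefore held 2 arrays. With all 18 arrays in the limma fit the spread grew, and 3 member probe sets in mutants of 10 weeks, 4 in mutants of 6 weeks and 3 in controls were called between regions, where 8, 7 and 6 were called without it; both Gfap probe sets lost their calls, with unchanged differences in mutants and values of -0.93 and -0.82 in controls. The array medians of the 17 ran from 207 to 226. The regions matched their labels by position genes: all 6 tested Hox genes of the spinal list were lower in the oculomotor samples in each of the 3 conditions, and all 5 tested midbrain genes of monoamine neurons were higher. Such genes can pass a filter on mean signal through the region where they are high, so these counts are no independent support. Hoxc8 had group means of 21.7 to 30.6 in the oculomotor nucleus and 1581 to 1761 in the spinal cord. Of the untested Hox genes, Hoxc5, Hoxa7 and Hoxc4 were also higher in the spinal cord. Hoxb7 was nearly flat, at 70.7 to 82.9 and 80.1 to 94.6. Phox2a and Isl1, transcription factors of oculomotor neurons, were dim everywhere, with group means of 41.8 to 68.0 for Phox2a and 36.0 to 114 for Isl1, so the oculomotor motor neurons themselves were not marked by these probe sets. Pituitary Gh stood at 13207 on mutant oculomotor replicate 2 of 10 weeks and 2934 on control oculomotor replicate 3, and results are also given without these 2 arrays where that matters. On the other oculomotor arrays Gh ran from 30.2 to 1045, and on the spinal cord arrays from 10.6 to 144.8. Leaving out these 2 arrays thus does not remove all pituitary signal.

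Each signal is the authors' Microarray Suite 5.0 value, a brightness scaled per array. A log2 difference is taken after adding 25 to each signal, so it understates changes of dim probe sets, and it carries its standard error (SE). A probe set is called when its adjusted p is under 0.05 in limma with Benjamini-Hochberg adjustment over the 13575 probe sets that passed a filter on low mean signal. Of the 13 member probe sets 9 passed that filter: both of Gfap, all 3 of Vim, 2 of 3 of Nes, the 1 of Serpina3n and 1 of 2 of Cd44. The other 4, which include the only ones of Timp1 and Lcn2, are given as values. In bulk RNA, fewer cells of a type and less RNA per cell cannot be told apart. Levels of different probe sets are not compared with each other.

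Gfap, the main filament protein of astrocytes, was far lower in the oculomotor nucleus than in the spinal cord in every condition. Gfap lies on chromosome 11, from 102887336 to 102897200 on the minus strand of GRCm38.p6. Probe set 1426508_at had signals of 1918, 1963 and 1833 in oculomotor nucleus from mutants of 10 weeks, against 10697, 11156 and 7481 in their spinal cord. At 6 weeks the signals were 2226, 2548 and 1126 in mutant oculomotor nucleus, against 8615, 9282 and 8947 in mutant spinal cord. In controls they were 1899, 1988 and 2518 in the oculomotor nucleus, against 9062 and 8638 in the spinal cord. The lowest spinal cord array thus lay well above the highest oculomotor array, and within a region the 3 groups overlapped. The log2 difference was -2.32 ± 0.21 in mutants of 10 weeks (5.01-fold lower, adjusted p = 2.60e-07), -2.25 ± 0.21 in mutants of 6 weeks (4.77-fold, adjusted p = 3.11e-07) and -2.05 ± 0.23 in controls (4.14-fold, adjusted p = 6.20e-06), by limma.

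The second Gfap probe set, 1426509_s_at, was designed on the same transcript record and showed the same split with a wider gap. Its signals were 803, 882 and 714 in oculomotor nucleus from mutants of 10 weeks, against 8451, 7343 and 6395 in their spinal cord. At 6 weeks they were 827, 1369 and 606 in mutant oculomotor nucleus, against 5914, 6374 and 5893 in mutant spinal cord. In controls they were 1004, 1025 and 1266 in the oculomotor nucleus, against 6856 and 6544 in the spinal cord. Averaged over the 3 conditions this probe set differed by -2.83 (95% interval -3.07 to -2.59, 7.12-fold lower) and 1426508_at by -2.21 (-2.47 to -1.95, 4.62-fold lower). The difference between these probe sets was not tested. On both, the lowest oculomotor signal was that of mutant replicate 3 of 6 weeks, with 1126 and 606.

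Vim encodes vimentin, the filament that reactive and immature astrocytes assemble together with GFAP. It lies on chromosome 2, from 13574311 to 13582826 on the plus strand, and 3 probe sets measure it. Probe set 1450641_at had signals of 1069, 839 and 937 in oculomotor nucleus from mutants of 10 weeks, against 2451, 2127 and 2068 in their spinal cord. At 6 weeks they were 637, 975 and 1044 in mutant oculomotor nucleus, against 2512, 2702 and 2785 in mutant spinal cord. In controls they were 752, 694 and 839 in the oculomotor nucleus, against 1898 and 1904 in the spinal cord. No oculomotor array reached the lowest spinal cord array. The log2 difference was -1.21 ± 0.14 in mutants of 10 weeks (adjusted p = 7.06e-06), -1.59 ± 0.14 in mutants of 6 weeks (2.18e-07) and -1.30 ± 0.16 in controls (1.62e-05), by limma.

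The other Vim probe sets, 1438118_x_at and 1456292_a_at, share 1 transcript record with each other. Both were called lower in the oculomotor nucleus in all 3 conditions, at -1.02, -1.83 and -1.07 for 1438118_x_at and at -1.45, -1.70 and -0.76 for 1456292_a_at, in mutants of 10 weeks, mutants of 6 weeks and controls. Averaged over the conditions, the 3 Vim probe sets gave -1.36, -1.30 and -1.30, a 2.46-fold to 2.58-fold lower level. In controls the call of 1456292_a_at rested on both spinal cord arrays: without control spinal cord replicate 3 its adjusted p was 0.0704 in limma.

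**Figure D1:**
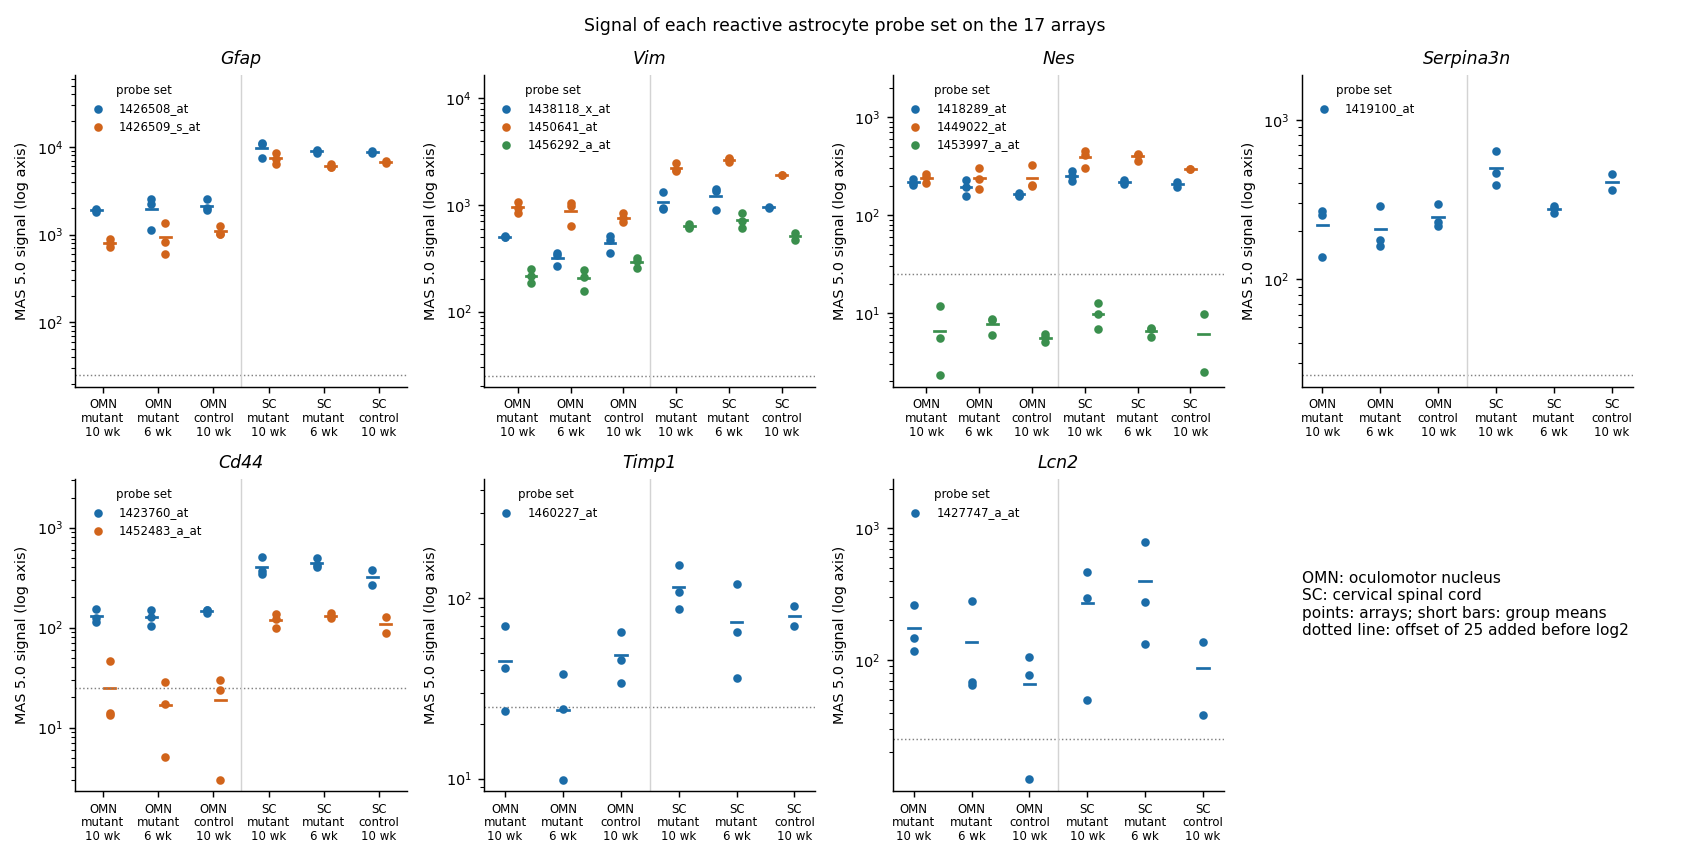
Signal of each member probe set (log axis) on the 17 arrays, with 1 panel per gene; points are arrays, short bars are group means and the dotted line is the offset of 25. Every Gfap array of the oculomotor nucleus lies at 2548 or below on 1426508_at and every spinal cord array at 7481 or above, while Lcn2 overlaps between regions.

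The start regions of these filament genes are shown because both moved the same way between regions. Promoter sequences are from RefSeq's annotation of GRCm38.p6, where all 7 genes matched. Each run holds the 250 bases before the start site and 7 after it. It is given 5′ to 3′ on the gene's own strand, at chr11:102897194-102897450 (minus) for Gfap and chr2:13574061-13574317 (plus) for Vim. Capitals mark matches to the motifs searched on both strands of the 300-base windows: TTCNNNGAA, which STAT factors bind, TGANTCA, which AP-1 binds, the GC box GGGCGG, and the TATA box TATAAA.
Gfap: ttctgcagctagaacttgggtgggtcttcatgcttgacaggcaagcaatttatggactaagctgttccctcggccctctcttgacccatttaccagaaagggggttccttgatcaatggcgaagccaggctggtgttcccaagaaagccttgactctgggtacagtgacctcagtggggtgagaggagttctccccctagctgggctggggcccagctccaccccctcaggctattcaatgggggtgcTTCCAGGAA
Vim: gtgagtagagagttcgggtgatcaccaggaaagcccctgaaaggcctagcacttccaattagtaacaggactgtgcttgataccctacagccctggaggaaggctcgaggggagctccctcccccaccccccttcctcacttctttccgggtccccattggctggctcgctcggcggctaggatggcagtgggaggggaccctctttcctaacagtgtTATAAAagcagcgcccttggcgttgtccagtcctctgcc

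The Gfap window held 1 STAT match, which began 2 bases before the start site, and no match of the other 3 motifs. The Vim window held 1 TATA box, which began 32 bases before the start site. Among the 7 member promoters, 1 held the STAT motif, 0 the AP-1 motif, 4 the GC box and 1 the TATA box. Of 32851 mouse promoter windows of this length, 8.3% held the STAT motif, 7.81% the AP-1 motif, 35.7% the GC box and 13.6% the TATA box. A match is a description of the letters, and no match says only that these letters are not in this window.

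Nes encodes nestin, a filament protein of neural progenitors that reactive astrocytes can express again, and its regional difference was small. Probe set 1449022_at had 212, 265 and 242 in oculomotor nucleus from mutants of 10 weeks, against 454, 412 and 303 in their spinal cord. At 6 weeks it had 186, 301 and 234 in mutant oculomotor nucleus, against 359.6, 420.1 and 411 in mutant spinal cord. In controls it had 196, 323 and 201 in the oculomotor nucleus, against 293 and 297 in the spinal cord, so the control arrays overlapped. It was called lower in mutants of 10 weeks (-0.63 ± 0.19, adjusted p = 0.0222) and of 6 weeks (-0.69 ± 0.19, adjusted p = 0.0111) by limma, and the control value was -0.30 ± 0.21 (adjusted p = 0.375).

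The Nes calls depended on single arrays. At 10 weeks the adjusted p in limma passed 0.05 without mutant oculomotor replicate 1 (0.0903) or 3 (0.0512), and without mutant spinal cord replicate 1 (0.104) or 2 (0.0685). At 6 weeks it did so without mutant oculomotor replicate 1 (0.0607). Probe set 1418289_at was not called in any single condition, at -0.19, -0.16 and -0.30, and its call on the mean of 3 conditions (-0.22 ± 0.08, adjusted p = 0.0444) was lost when any of 14 of the 17 arrays was left out. The third, 1453997_a_at, lay between 2.3 and 12.6 on all arrays, below the offset.

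Cd44, the cell-surface receptor for hyaluronan, was lower in the oculomotor nucleus on both of its probe sets. It lies on chromosome 2, from 102811141 to 102901669. Probe set 1423760_at had 126, 113 and 152 in oculomotor nucleus from mutants of 10 weeks, against 512, 370.3 and 340.2 in their spinal cord. At 6 weeks it had 128, 151 and 105 in mutant oculomotor nucleus, against 499.9, 426 and 402 in mutant spinal cord. In controls it had 151, 149.8 and 141 in the oculomotor nucleus, against 379.5 and 265 in the spinal cord. The lowest spinal cord array stood above every oculomotor array. The log2 difference was -1.47 ± 0.17 in mutants of 10 weeks (adjusted p = 5.76e-06), -1.62 ± 0.17 in mutants of 6 weeks (1.66e-06) and -0.99 ± 0.19 in controls (0.00142), by limma. Without control spinal cord replicate 2 the control value was -0.75 with an adjusted p of 0.0619.

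The dim Cd44 probe set 1452483_a_at did not pass the filter. Its oculomotor signals lay between 3.0 and 46.7 and its spinal cord signals between 88.6 and 140.2, so the regions did not overlap. All 3 oculomotor group means lay below the offset, so the size of its difference depends on that offset. With no filter its adjusted p in limma was 0.00151 in mutants of 10 weeks, 2.41e-04 in mutants of 6 weeks and 0.00388 in controls.

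Serpina3n encodes a secreted inhibitor of serine proteases and is a marker raised in many forms of astrocyte reaction. It lies on chromosome 12, from 104406646 to 104414334, within a cluster of related serpin genes whose transcripts a probe set may share. Its probe set 1419100_at had 252, 139 and 269.7 in oculomotor nucleus from mutants of 10 weeks, against 643, 389.8 and 462 in their spinal cord. At 6 weeks it had 287, 163 and 176 in mutant oculomotor nucleus, against 282, 260.3 and 288 in mutant spinal cord, and these arrays overlapped. In controls it had 298, 230.2 and 215 in the oculomotor nucleus, against 363 and 459 in the spinal cord. It was called lower in mutants of 10 weeks (-1.11 ± 0.23, 2.16-fold, adjusted p = 0.00178) by limma. The differences in mutants of 6 weeks (-0.41 ± 0.23, adjusted p = 0.207) and in controls (-0.68 ± 0.25, adjusted p = 0.0838) were not called. The control value was called with the control arrays alone (adjusted p = 0.0288) and without mutant oculomotor replicate 2 of 10 weeks (adjusted p = 0.0450).

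Timp1 encodes an inhibitor of matrix metalloproteinases. Its signals were low: 40.9, 70.8 and 23.6 in oculomotor nucleus from mutants of 10 weeks, against 154, 108 and 87.2 in their spinal cord. At 6 weeks they were 9.8, 37.9 and 24.5 in mutant oculomotor nucleus, against 36.1, 120.0 and 65.0 in mutant spinal cord. In controls they were 33.8, 45.8 and 65.2 in the oculomotor nucleus, against 90.6 and 70.0 in the spinal cord. The regions did not overlap at 10 weeks in either genotype and overlapped at 6 weeks. With no filter, the adjusted p in limma was 0.0464 in mutants of 10 weeks (log2 difference -1.04), 0.0565 in mutants of 6 weeks (-0.96) and 0.467 in controls (-0.54).

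Lcn2 encodes lipocalin 2, a secreted protein that binds iron carriers of bacteria and is induced by inflammation. Its probe set varied widely among arrays of 1 group. It had 264, 117 and 148 in oculomotor nucleus from mutants of 10 weeks, against 49.9, 468 and 294 in their spinal cord. At 6 weeks it had 67.9, 65.1 and 280.4 in mutant oculomotor nucleus, against 133, 273 and 790.0 in mutant spinal cord. In controls it had 106, 12.5 and 77.4 in the oculomotor nucleus, against 38.3 and 137 in the spinal cord. Regions overlapped in every condition, and with no filter the adjusted p in limma lay at 0.875, 0.260 and 0.897 in mutants of 10 weeks, mutants of 6 weeks and controls. Within the oculomotor nucleus the mutant arrays of 10 weeks all lay above the controls (log2 difference 1.27, adjusted p = 0.539 with no filter). The same held for 10.7% of all 22626 probe sets.

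In mutants of 10 weeks 8 of the 9 tested probe sets were called lower in the oculomotor nucleus, where 9.99% of all tested probe sets were called lower. In mutants of 6 weeks it was 7 of 9 (all probe sets 11.7%) and in controls 6 of 9 (6.94%). None was called higher in the oculomotor nucleus by limma in these comparisons. The median log2 difference of the 9 was -1.21 in mutants of 10 weeks, -1.62 in mutants of 6 weeks and -0.99 in controls, while that of all tested probe sets was 0.00, 0.03 and 0.01. Of all 13 probe sets, arrays did not overlap and were lower in the oculomotor nucleus for 10 in mutants of 10 weeks, 8 in mutants of 6 weeks and 10 in controls. Among all 22626 probe sets that share was 16.3%, 13% and 18.6%. On the mean of the 3 conditions all 9 were called lower, against 17.7% of all probe sets. These counts include Cd44 1423760_at, which its spinal cord signals carried past the filter, so its calls add little support. Its group means were 7.24 to 7.43 log2 in the oculomotor nucleus and 8.42 to 8.86 in the spinal cord, with the filter limit at 7.38.

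**Figure D2:**
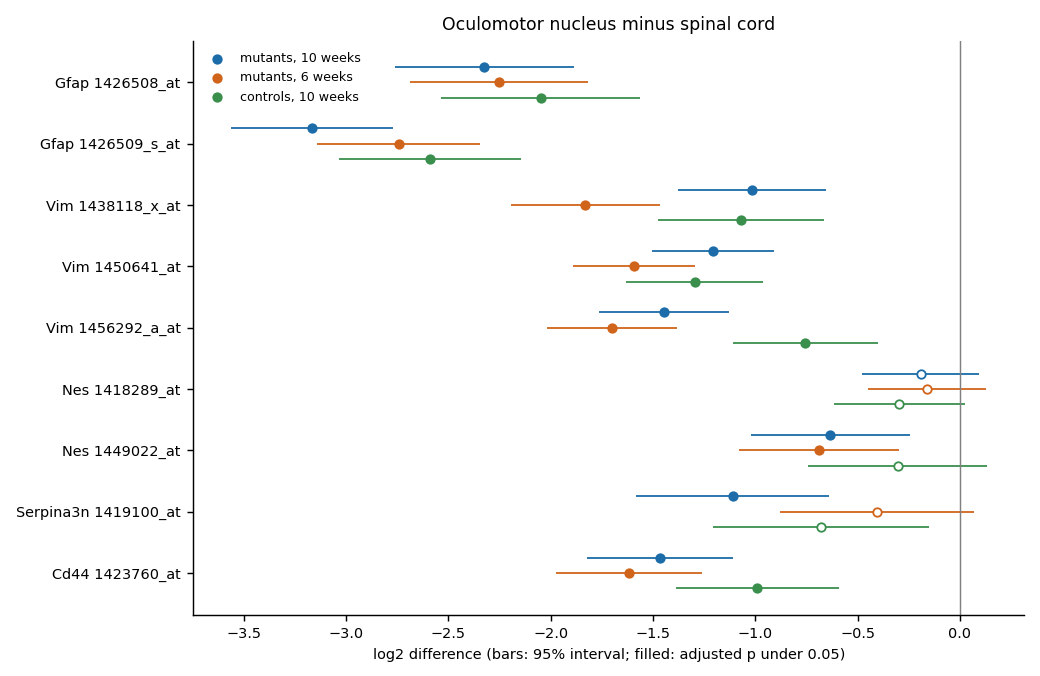
Log2 difference between oculomotor nucleus and spinal cord for the 9 tested member probe sets in mutants of 10 weeks, mutants of 6 weeks and controls of 10 weeks; bars are 95% intervals and filled points are called. Gfap lies farthest from 0, from -3.17 to -2.05, and Nes 1418289_at nearest, from -0.30 to -0.16.

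The comparison of mutants with controls at 10 weeks asks whether these genes differ by genotype within a region. In the spinal cord, the affected region, no member was called, while 0.0221% of all tested probe sets were. Each of the 9 tested values was positive, from 0.12 ± 0.23 for Gfap 1426508_at to 0.36 ± 0.21 for Nes 1449022_at, and 0 of them had an unadjusted p under 0.05 in limma. Their median was 0.24 and that of all tested probe sets 0.00. These 9 values share the 2 control arrays, and several probe sets measure 1 gene, so their common sign is not independent evidence. The 95% interval of the genotype difference ran from -0.36 to 0.61 for Gfap 1426508_at and from -0.31 to 0.58 for 1426509_s_at. It ran from -0.12 to 0.55 for Vim 1450641_at, from -0.28 to 0.77 for Serpina3n and from -0.08 to 0.71 for Cd44 1423760_at. For Gfap, log2 rises above 0.61 on 1426508_at and above 0.58 on 1426509_s_at lie outside these intervals.

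In the oculomotor nucleus no member was called by genotype either, while 1.47% of all tested probe sets were. The members had 4 unadjusted p-values under 0.05 among 9 in limma, where all tested probe sets had 2024 among 13575, and the 4 differences did not point one way. Gfap 1426509_s_at had 803, 882 and 714 in mutants, against 1004, 1025 and 1266 in controls, so the arrays did not overlap (-0.44 ± 0.19, adjusted p = 0.270). Gfap 1426508_at had -0.15 ± 0.21 (adjusted p = 0.792), and its arrays overlapped. The Vim probe sets had -0.39 ± 0.15 for 1456292_a_at (adjusted p = 0.210), 0.30 ± 0.14 for 1450641_at (adjusted p = 0.323) and 0.19 ± 0.17 for 1438118_x_at (adjusted p = 0.669). Probe sets of the same gene therefore had opposite signs. Nes 1418289_at had 215, 234 and 201 in mutants, against 169.5, 158 and 162 in controls, with no overlap (0.36 ± 0.14, adjusted p = 0.198). Among all tested probe sets, 12.3% lay lower in mutants without overlap in this comparison and 11.7% higher.

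The genotype difference in the oculomotor nucleus was set against that in the spinal cord as 1 contrast. No member was called, nor was any of the 13575 probe sets (0%) by limma, where 835 had an unadjusted p under 0.05. The most extreme member was Vim 1456292_a_at at -0.69 ± 0.23 (unadjusted p = 0.00692, adjusted p = 0.734). For Gfap the values were -0.27 ± 0.31 for 1426508_at and -0.58 ± 0.28 for 1426509_s_at.

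Between mutants of 10 and of 6 weeks, no member was called in either region by limma, while 2.76% of all tested probe sets were called in spinal cord and 0.0221% in the oculomotor nucleus. These comparisons use the same mutant arrays of 10 weeks as those with controls. In mutant spinal cord Serpina3n had 643, 389.8 and 462 at 10 weeks, against 282, 260.3 and 288 at 6 weeks. The arrays of the ages did not overlap, as held in this direction for 13.4% of all tested probe sets. The log2 difference of Serpina3n was 0.77 ± 0.23 (1.70-fold, unadjusted p = 0.00309, adjusted p = 0.0730). Over the fits that left out 1 array the adjusted p ran from 0.0453 to 0.245, and it fell under 0.05 without mutant oculomotor replicate 1 of 6 weeks (0.0476) or mutant oculomotor replicate 2 of 10 weeks (0.0453). The control spinal cord arrays of 10 weeks, at 363 and 459, lay among those of mutants of the same age or just below them. With no control of 6 weeks, age in mutants and age in general cannot be told apart.

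The other members had smaller age differences in the spinal cord, with tested values from -0.27 ± 0.14 for Vim 1450641_at to 0.28 ± 0.19 for Gfap 1426509_s_at. In the oculomotor nucleus Vim 1438118_x_at had 506, 512 and 497 at 10 weeks, against 269, 342 and 352 at 6 weeks (0.62 ± 0.17, unadjusted p = 0.00191, adjusted p = 0.224). The other Vim probe sets there had 0.12 ± 0.14 and 0.08 ± 0.15, and their arrays overlapped. Serpina3n had 0.06 ± 0.23 in the oculomotor nucleus. The age difference in the oculomotor nucleus minus that in the spinal cord was -0.71 ± 0.32 for Serpina3n (adjusted p = 0.283) and 0.82 ± 0.24 for Vim 1438118_x_at (adjusted p = 0.131), and no member was called, against 0.368% of all probe sets.

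**Figure D3:**
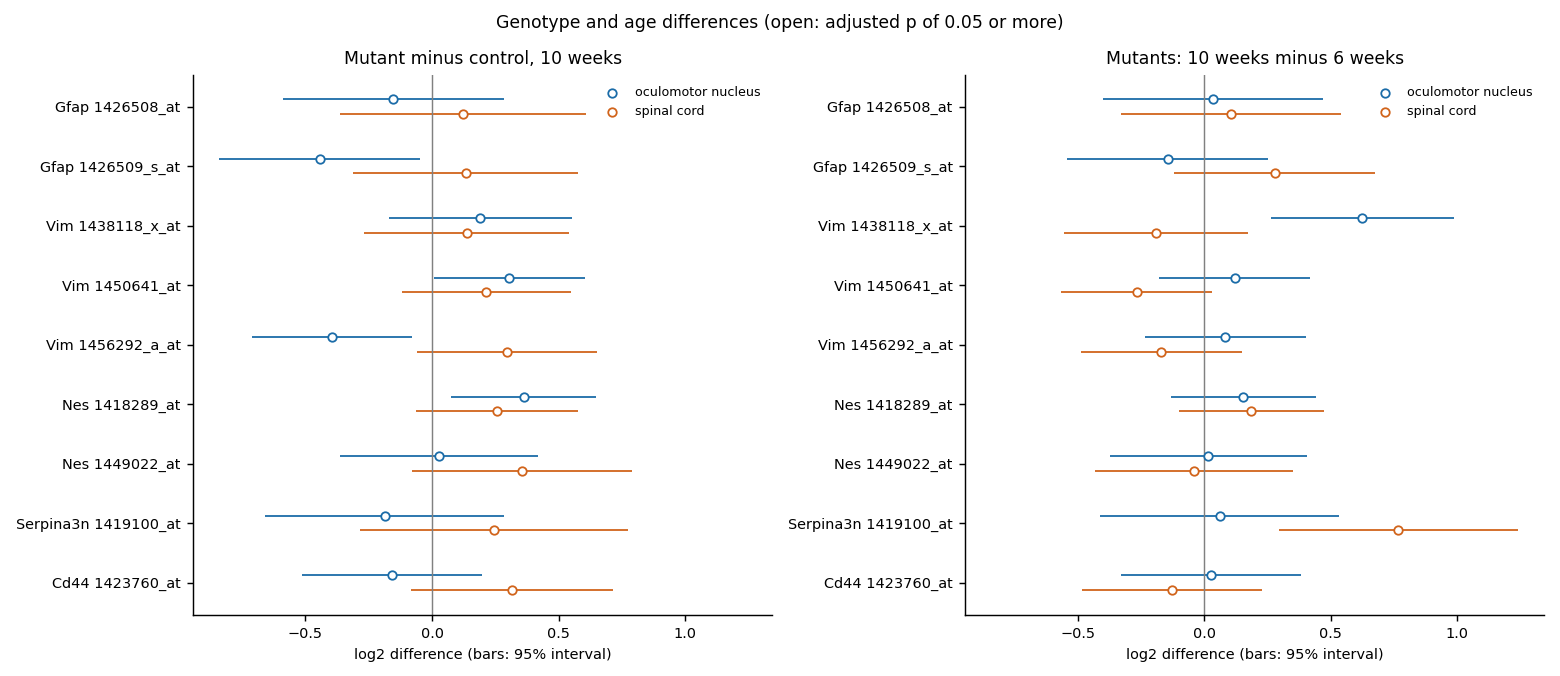
Log2 differences of the 9 tested member probe sets between mutants and controls of 10 weeks (left) and between mutants of 10 and of 6 weeks (right), in the oculomotor nucleus and the spinal cord; bars are 95% intervals and open points are not called. No value is called, and the largest by age are Serpina3n in spinal cord (0.77) and Vim 1438118_x_at in the oculomotor nucleus (0.62).

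Other genes of the reactive astrocyte program were read on the same arrays, with the brightest probe set standing for each gene. Between regions, 9.99%, 11.7% and 6.94% of all tested probe sets were called lower in mutants of 10 weeks, mutants of 6 weeks and controls. The shares called higher were 9.3%, 12.2% and 6.62%. The regional list counts here and in the next paragraphs stand beside these shares. Of 7 further genes on a list of general (pan-reactive) astrocyte reaction genes, 6 were on the array and 2 passed the filter. These were Hspb1, a small heat shock protein, at -1.56, -1.46 and -1.18, and Cp, the copper-carrying ferroxidase ceruloplasmin, at -0.68, -1.30 and -0.89, in mutants of 10 weeks, mutants of 6 weeks and controls. Both were called lower in the oculomotor nucleus in all 3 conditions. Of the genes of the A1 state, described after inflammation, 2, 2 and 1 of 6 tested were called lower in these conditions and 0 higher. Serping1, the inhibitor of complement C1, was lower in each (-1.16, -1.45 and -1.12). Of the genes of the A2 state, described after ischaemia, 1, 3 and 2 of 6 tested were called lower and 0 higher. Among these Cd14, a receptor for bacterial lipopolysaccharide that microglia also carry, had -0.62, -0.45 and -0.53.

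Of the interleukin-6 family and STAT3 list, 3, 4 and 3 of 12 tested genes were lower by the test in the oculomotor nucleus of mutants of 10 weeks, mutants of 6 weeks and controls, and 1, 1 and 0 higher. Stat3 itself had -0.61, -0.76 and -0.58. Il6st, the shared receptor chain gp130, had -0.40, -0.70 and -0.53, and Lifr, the receptor of leukaemia inhibitory factor, had -0.64, -0.69 and -0.62. The genes called higher were Cntfr, the receptor of ciliary neurotrophic factor, in mutants of 10 weeks (0.59) and Pias3, an inhibitor of STAT3, in mutants of 6 weeks (0.42). Jak1, a kinase of this pathway, was called lower at 10 than at 6 weeks in mutant spinal cord (-0.51, adjusted p = 0.00644 by limma). It was 1 of 12 genes tested there, where 0.972% of all tested probe sets were called lower. The list's median over the 3 conditions was -0.02, and that of all tested probe sets 0.02.

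Around Cd44 and Timp1, the list of hyaluronan and CD44 partners had 2, 3 and 2 of 6 tested genes called lower and 0 higher. Msn, which encodes moesin and ties CD44 to actin, had -0.94, -1.09 and -1.05. Of the matrix proteases and their inhibitors, 3, 5 and 3 of 12 were called lower and 0, 1 and 1 higher. Mmp2, a gelatinase, had -1.29, -1.30 and -1.24 and Mmp9, another, -0.96, -0.85 and -0.77. Of the partner filaments and linkers, 0, 2 and 0 of 7 were called lower and 0 higher.

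Markers of resting astrocytes were called in both directions between regions. Of 20 tested genes, the oculomotor nucleus was called lower for 5 in each condition, and 1, 3 and 1 were called higher. Of all tested probe sets, 9.99%, 11.7% and 6.94% were called lower and 9.3%, 12.2% and 6.62% higher. The calls higher thus lay near the share of all probe sets. Their median was -0.17 in mutants of 10 weeks, -0.07 in mutants of 6 weeks and -0.23 in controls. The glutamate transporter Slc1a3 was higher in each (0.67, 0.59 and 1.00), while Slc1a2, another transporter, was lower (-0.62, -0.52 and -0.71). The water channel Aqp4 (-0.88, -0.92 and -0.84) and the calcium-binding protein S100b (-1.16, -1.01 and -1.15) were lower too. The summed signal of the 20 genes ran from 73609 to 78330 in oculomotor nucleus and from 84570 to 86883 in spinal cord in mutants of 10 weeks. In mutants of 6 weeks it ran from 72701 to 79062 in oculomotor nucleus and from 75167 to 79774 in spinal cord, which overlap. In controls it ran from 66180 to 67626 in oculomotor nucleus and was 78458 and 84498 in spinal cord. Aldoc and Apoe, the brightest of these genes, weigh heavily in these sums. Aldoc had group means of 9846 to 13287 in the oculomotor nucleus and 9941 to 13932.5 in the spinal cord. None of the 20 markers had a group mean of 0. Aldoc, a glycolytic enzyme of astrocytes, was called higher in mutants than in controls in the oculomotor nucleus (0.43, adjusted p = 0.0226) and higher at 10 than at 6 weeks in mutant spinal cord (0.49, adjusted p = 0.0118), by limma. It was the only 1 of the 20 genes called in either comparison. Of all tested probe sets, 1.04% and 1.78% were called higher there.

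Marker lists of meningeal cells and fibroblasts, of microglia and of oligodendrocytes were also mostly lower in the oculomotor nucleus. Endothelial markers mostly were not. Of 13 tested meningeal and fibroblast genes, 11, 12 and 10 were called lower in the oculomotor nucleus in mutants of 10 weeks, mutants of 6 weeks and controls, with medians of -0.93, -1.36 and -1.13. Their summed signal ran from 13727 to 20547 over the oculomotor arrays and from 18826 to 24733 over the spinal cord arrays. Ptgds, the brightest of these genes, weighs heavily in that sum. Its group means were 9166 to 13563 in the oculomotor nucleus and 11146 to 12209 in the spinal cord, and in mutants of 6 weeks the oculomotor mean was the higher. Dimmer genes could differ more: Col1a1 had group means of 76.0 to 100 and 395 to 853. Of 13 microglia and macrophage genes, 10, 8 and 6 were called lower, with summed signals of 6113 to 7424 in the oculomotor nucleus and 8766 to 13394 in the spinal cord. Of 12 oligodendrocyte genes, 10, 8 and 12 were called lower. No tested marker of these 3 lists was below 25 on any array, but the filter limit lay higher, at 7.38 log2. Genes such as Col1a1 can pass that filter through the spinal cord, where they are high. In the microglia list, Cd68 had group means of 113 to 147 in the oculomotor nucleus and 162 to 238 in the spinal cord. The counts called lower in the meningeal and microglia lists are thus no independent support. Of 6 pericyte and smooth muscle genes, 4 were called lower in mutants of 6 weeks and 0 in mutants of 10 weeks and in controls. Their medians were -0.61 at 6 weeks, 0.02 in mutants of 10 weeks and -0.04 in controls. Their summed signal in mutants of 6 weeks ran from 3024 to 3360 in the oculomotor nucleus and from 4251 to 5215 in the spinal cord. Acta2, the actin of smooth muscle, averaged 682 in that oculomotor nucleus and 1169 in that spinal cord (log2 difference -0.76, adjusted p = 7.00e-04 by limma). Endothelial genes were called lower for 1 of 12 in each condition, and the lone tested ependymal gene, Foxj1, was not called in any. Of the untested ependymal genes, Rsph1 had group means of 60.6 to 134.5 in the oculomotor nucleus and 8.5 to 33.8 in the spinal cord. Tekt1 had 64.9 to 81.7 and 29.2 to 60.8, and Rarres2 had 97.6 to 180.2 and 96.15 to 120.6. Whether ependymal content differed between regions was not tested. Since Vim, Cd44 and Timp1 are also expressed in cells of these lists, their part in the result was not tested.

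**Figure D4:**
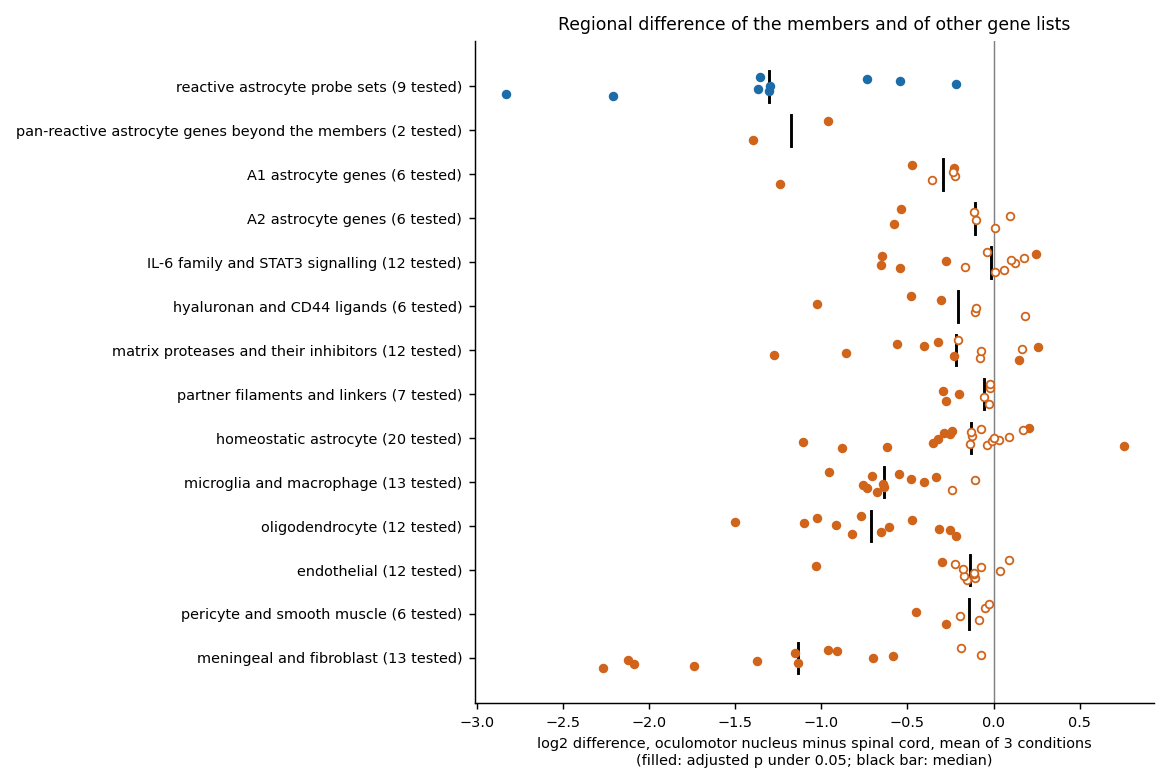
Log2 difference between oculomotor nucleus and spinal cord, averaged over the 3 conditions, for the 9 tested member probe sets and for the tested genes of 13 other lists; filled points are called and black bars are medians. The members' median is -1.30 and that of resting astrocyte genes -0.13, while the meningeal list lies at -1.14.

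For the 6 member probe sets called in all 3 regional comparisons, the genes with the most similar profiles were those with the smallest root mean square difference of centred log2 signals over the 17 arrays. For Gfap 1426508_at they were Lamp5 (0.30), A2m (0.31), Lgals1 (0.31), Klk6 (0.31) and Hopx (0.32), where the median over all candidates was 1.16. For Gfap 1426509_s_at, Lamp5 (0.27) and Prph (0.28) came first, followed by Lgals1, A2m and Ogn. For Vim 1450641_at they were S100b (0.20), Plin3 (0.20), Kcnj14 (0.21), Nefh (0.21) and Cgnl1 (0.23), against a median of 0.77. Serping1 was the nearest to both other Vim probe sets (0.24 and 0.22) and to Cd44 1423760_at (0.19), where Lum (0.19) and Mmp2 (0.21) followed. These likenesses are descriptions over arrays that share the regional difference and the same libraries.

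**Figure D5:**
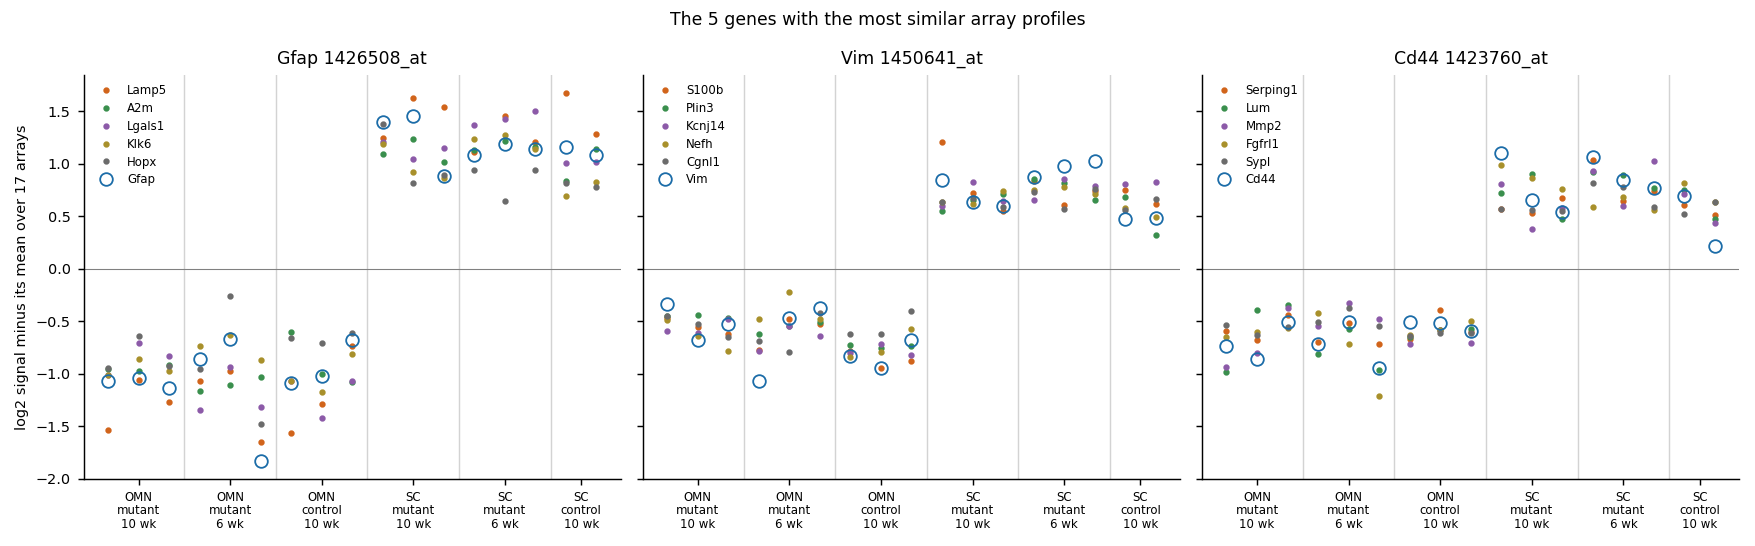
Log2 signal minus its own mean over 17 arrays for Gfap 1426508_at, Vim 1450641_at and Cd44 1423760_at (open circles) and the 5 genes with the most similar profile (dots), by group. Each profile steps up between the oculomotor and the spinal cord arrays, and on Gfap mutant oculomotor replicate 3 of 6 weeks lies lowest.

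Without the 2 oculomotor arrays with high pituitary signals, 8, 7 and 6 of the 9 tested member probe sets were called lower in the oculomotor nucleus in mutants of 10 weeks, mutants of 6 weeks and controls, and 0 were called by genotype or by age.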

How the data were processed

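Total RNA of mouse oculomotor nucleus and cervical spinal cord was hybridised to Affymetrix 430A arrays. The deposited values are intensity signals on a linear scale, computed by the authors with Affymetrix Microarray Suite 5.0, per the series' design text. The steps that follow were run here.

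Of 22690 probe sets, 64 control probe sets were removed, and log2 was taken of each signal plus 25 with no further normalization. The 40% with the lowest mean were left out (limit 7.38). Means of 6 groups over 17 arrays were fitted with limma 3.58.1 in R 4.3.3 (eBayes with a trend, 11 residual degrees of freedom), with Benjamini-Hochberg adjustment within each comparison and calls at an adjusted p under 0.05. The submitters' rule, pairwise differences in 1 direction with a mean change over 2-fold, was run on the signals as an alternative, without their detection and difference calls. The number of arrays limits precision.

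The member genes and gene lists were chosen with earlier results of these data known. Named were all members, and from each other list up to 4 genes with the smallest p in the mean regional comparison or the one described; Pias3 was named after its values were seen. Symbols come from the array's annotation, 1 symbol for 20380 probe sets, several for 691 and none for 1555, and 20351 were updated by gene identifier. Gene positions and promoters are RefSeq's for GRCm38.p6. The build behind the array design is not given in the sources used here. Alternatives covered the offset, floor, filter, normalization, arrays entered, probe sets per gene, replicate block and leaving out each array.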

Additional observations from a re-analysis of the deposited data

How the results depend on the processing

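The offset, the floor, quantile normalization, median centring, no trend and the submitters' pairwise rule moved no count of called members by over 1.5 times. With the dimmest 60% left out, 5 members were called lower in mutants of 10 weeks and 5 on the mean of 3 conditions, because fewer were tested. With 1 probe set per gene, 5, 4, 3 and 5 were called in mutants of 10 weeks, mutants of 6 weeks, controls and on the mean, also because fewer were tested. With all 18 arrays, 3, 4 and 3 were called in these conditions. With the replicate number as a block, 1 member was called by age in mutant spinal cord, Serpina3n (0.77, adjusted p = 0.0251 in limma), and Serpina3n was called between regions in controls (-0.81, adjusted p = 0.00796); the cause was not tested. Deviations from group means correlated at -0.10 to 0.13 over 40 same-number pairs (median 0.022, 6 over 0.1), and over 80 pairs of other numbers the median was -0.019 with 2 over 0.1. Same-number pairs thus leaned higher, but most lay under 0.1, and the main fit used no pairing. These pairs were pooled over all groups, also across ages and genotypes. They therefore cannot decide whether the oculomotor nucleus and spinal cord of the same number came from the same mice. The sample titles do not say so either. Leaving out each array gave 7 to 8 called members in mutants of 10 weeks, 6 to 7 in mutants of 6 weeks, 5 to 7 in controls, 8 to 9 on the mean and 0 to 1 by age in spinal cord. In the comparisons by genotype, and by age in the oculomotor nucleus, no member was called under any setting run.

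The values that changed sign were all uncalled, and the cause was not tested. With all 18 arrays, Nes 1418289_at had 0.24 between regions in controls (-0.30 without the left-out array), Vim 1456292_a_at had -0.23 by genotype in spinal cord (0.30 without it), and the genotype contrast between regions had -0.042 for Vim 1438118_x_at, -0.41 for Vim 1450641_at and -0.44 for Nes 1418289_at. Without both arrays with high pituitary signals, which was chosen after seeing the data, Nes 1449022_at had -0.14 by genotype and -0.052 by age in the oculomotor nucleus and -0.012 in the age contrast between regions, and Vim 1438118_x_at had -0.10 in the genotype contrast between regions. With quantile normalization, Gfap 1426508_at had -0.025 by age in spinal cord and 0.041 in the age contrast between regions, where Nes 1418289_at had 0.046; median centring gave 0.019 and 0.058 there.

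Leaving out each array changed the sign of these values. By genotype in the oculomotor nucleus, Nes 1449022_at ran from -0.085 to 0.24 and Serpina3n from -0.34 to 0.079. Vim 1438118_x_at ran from -0.035 to 0.24 by genotype in spinal cord and from -0.093 to 0.23 in the genotype contrast between regions. By age in the oculomotor nucleus the ranges were -0.32 to 0.26 for Gfap 1426508_at, -0.41 to 0.16 for Gfap 1426509_s_at, -0.094 to 0.25 for Vim 1450641_at, -0.079 to 0.21 for Vim 1456292_a_at, -0.14 to 0.17 for Nes 1449022_at, -0.094 to 0.33 for Serpina3n and -0.086 to 0.13 for Cd44 1423760_at. By age in spinal cord Nes 1449022_at ran from -0.15 to 0.12. In the age contrast between regions the ranges were -0.43 to 0.15 for Gfap 1426508_at, -0.15 to 0.085 for Nes 1418289_at and -0.10 to 0.21 for Nes 1449022_at. Signals near the offset limit what can be said of Timp1 and the dim probe sets of Cd44 and Nes, and the spread within groups limits Lcn2.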

Other observations

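Outside the reactive astrocyte program, the age comparison in mutant spinal cord called 4 of 13 meningeal and fibroblast genes and 2 of 6 pericyte and smooth muscle genes lower at 10 than at 6 weeks by limma. Among them were the collagens Col1a1 (-1.12) and Col3a1 (-1.09), which fibroblasts secrete. Of all tested probe sets, 0.972% were called lower in that comparison. In the oculomotor nucleus the microglial chemokine receptor Cx3cr1 was called higher in mutants than in controls (1.02, adjusted p = 0.00327 by limma), 1 of 13 microglia and macrophage genes tested there. Of all tested probe sets, 1.04% were called higher in that comparison. Cx3cr1 averaged 639 in mutants of 10 weeks and 304 in controls there. In the spinal cord it averaged 761 and 377 and was not called. The genotype contrast between regions called no probe set, so this rise was not shown to differ between regions.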
